A study of Dugesia japonica with 18 samples.

Results

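The transcripts described here encode the proteasome and the ubiquitin-conjugating enzymes (E2) of Dugesia japonica, a planarian in which cut pieces of the body grow back into complete worms. They are the assembled transcripts (unigenes) whose SwissProt name contains "Proteasome subunit", "26S proteasome", "26S protease", "Proteasome activator" or "Ubiquitin-conjugating enzyme" and that reached at least 1 CPM, the count scaled to a fixed library size, in at least 3 of 18 libraries. This gave 36 members of the 23616 unigenes past that filter and of 267235 in all. Another 9 unigenes had such a name but fell below the filter, among them an E2 K. Unigenes that match ciliates were to be left out, and 0 were. Only 11 members carried a species match in the nr protein database, each to a flatworm, and 25 carried none, so the ciliate rule could not be applied to those.

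PolyA-enriched RNA of head, trunk and tail was sequenced at days 0, 1, 3, 5, 7 and 10. Each combination of fragment and day is a single library, for which 10 to 20 animals were pooled. What day 0 stands for (intact or freshly cut) is unknown here. No fragment and day was repeated, so the other days stand in for replicates of a fragment and the other fragments for replicates of a day. The p-values therefore rest on fragment-by-day deviations, not on the spread between pools. In such bulk samples, fewer cells of a type and less RNA per cell cannot be told apart.

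Proteins to be destroyed are tagged with chains of ubiquitin by a relay of activating (E1), conjugating (E2) and ligating (E3) enzymes. The 26S proteasome then takes them in. Its 19S regulatory particle binds the chain, removes it and unfolds the protein with a ring of ATPases. The 20S core, a barrel of alpha and beta rings, cuts the unfolded chain, and activators can cap that barrel in place of the 19S particle. Tissue that is being rebuilt makes and breaks down much protein, and stem cells of planarians divide to supply it.

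By role, the 36 members were 3 alpha and 2 beta subunits of the 20S core, 7 ATPases and 10 non-ATPase subunits of the 19S particle, 2 activators and 12 E2 enzymes. Of the 20S beta subunits, neither type-2 nor type-4 is a catalytic one. The members had 33 different names: 3 unigenes shared the name non-ATPase regulatory subunit 1 and 2 the name regulatory subunit 4, and reads may be split between such copies. Every member had counts in every library. Proteasome subunit alpha type-5 (TRINITY_DN12278_c0_g1) and a copy of non-ATPase subunit 1 (TRINITY_DN4344_c0_g1) each fell below 3 counts in 1 library, so their fold changes are poorly determined. Together the members took 0.128 to 0.286% of the counts of a library.

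Library totals ran from 17547716 to 21229980 counts, at which 3 counts equal 0.141 to 0.171 CPM by plain totals, before TMM scaling. The most abundant unigene, which has no annotation, held from 13.0% of a library's counts (head, day 1) to 49.6% (tail, day 0), so levels are given as CPM after TMM scaling. Scaling by plain library totals shifts the median log2 difference over all 23616 unigenes by 0.69 (head minus tail), 0.30 (head minus trunk) and 0.39 (trunk minus tail). Scaling by totals without that unigene shifts it by 0.25, 0.36 and -0.11. Differences between fragments below are thus relative to the bulk of unigenes. Fragment labels were checked with markers. The summed level of 9 photoreceptor unigenes was 166 to 287 CPM in head, 45.6 to 61.8 in trunk and 40.7 to 70.8 in tail, and that of 9 posterior unigenes was 30.1 to 66.3, 100.6 to 128 and 113 to 307 CPM. Of these lists, 3 photoreceptor and 1 posterior unigene had a library at 0. The photoreceptor list holds beta-arrestins and orphan receptors beside rhodopsins. Of its 9 unigenes, 6 were higher and 0 lower in head than in trunk, and the same numbers held against tail. Of the 9 posterior unigenes, 1 was higher and 6 lower in head than in trunk, and 0 higher and 6 lower in head than in tail. Between trunk and tail, 1 posterior unigene was higher in trunk and 4 lower.

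**Figure D1:**
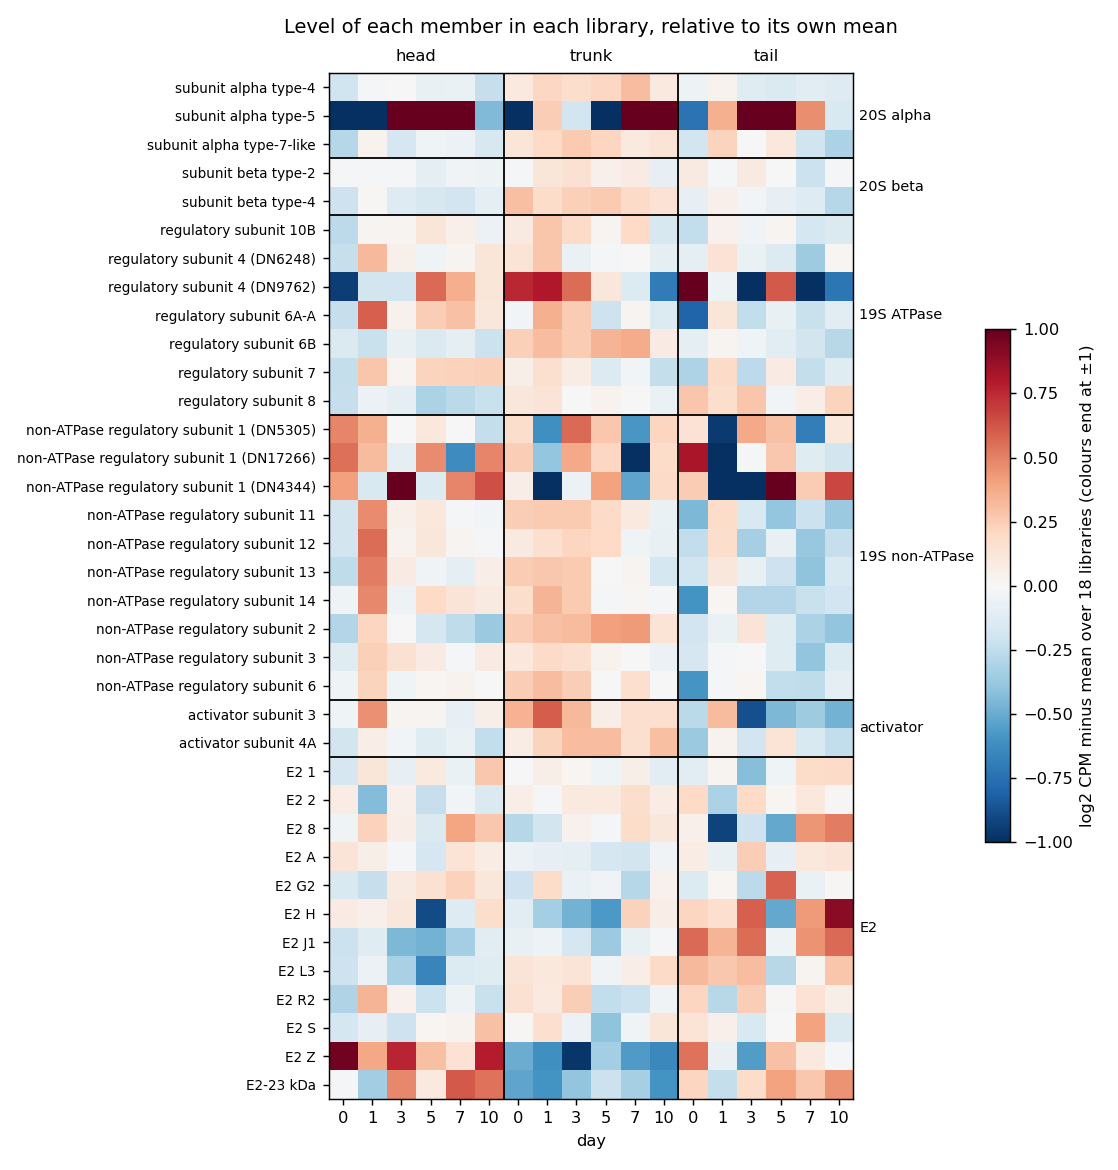
Level of each of the 36 members (rows, by role) in each of the 18 libraries (columns, by fragment and day), as log2 CPM after TMM scaling minus the member's own mean; red is higher and blue lower, and colours end at ±1. Many proteasome rows are redder in trunk than in tail and on day 1, while E2 J1 and E2 H are reddest in tail and E2 Z in head; with plain library totals head and trunk would shift up against tail.

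Most members varied little. For the 27 members with a mean of at least 10 CPM, the SD of log2 CPM over the 18 libraries had a median of 0.21, against 0.30 for 8718 tested unigenes at that level with no library at 0. The least variable was proteasome subunit beta type-2 (TRINITY_DN6269_c0_g1), with 49.7 to 52.5 CPM in head, 49.9 to 58.6 in trunk and 45.5 to 56.4 in tail. All 3 ranges overlapped, and its highest library was 1.29 times its lowest. The most variable at that level was non-ATPase subunit 1, described below.

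With TMM scaling, calls between trunk and tail went one way for the proteasome and the other way for the E2 enzymes. Between trunk and tail, 14 of 24 proteasome members were higher in trunk and 0 were lower, whereas among the 12 E2 enzymes 0 were higher and 4 were lower. That is 18 of 36 members called at an adjusted p under 0.05, against 36.7% of all tested unigenes, of which 18.3% were higher and 18.4% lower. The median log2 difference was 0.27 over the proteasome members, -0.09 over the E2 enzymes and -0.01 over all tested unigenes. By role, 2 of 3 alpha subunits, 1 of 2 beta subunits, 2 of 7 ATPases, 7 of 10 non-ATPase subunits and both activators were higher in trunk. With totals without the most abundant unigene, 7 members were higher and 6 lower in trunk than in tail. With plain library totals, all members called were higher in trunk, so no E2 enzyme was called lower. Of the 18 members called with TMM scaling, 0 changed sign with plain totals.

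Between head and trunk, 11 of 36 members were called, against 42.3% of all tested unigenes (19.6% higher and 22.7% lower). Lower in head were 7 proteasome members and 2 E2 enzymes, and higher in head were 2 E2 enzymes and 0 proteasome members. The 7 of 24 proteasome members lower in head are 29.2%, near the background of 22.7%, and 8 of 24 had a positive difference. The medians were -0.10 over the proteasome members, 0.06 over the E2 enzymes and 0.00 over all. Between head and tail, 11 members were called as well, against 39.2% of all (19.5% higher and 19.6% lower): 6 proteasome members were higher in head and 1 lower, and 1 E2 enzyme was higher and 3 lower. The medians were 0.10, -0.05 and 0.02. The 3 comparisons share libraries, since each fragment enters 2 of them, so their values are set side by side below and are not independent. All these directions are with TMM scaling or DESeq2 size factors. With plain library totals, 4 of the 11 called members changed sign in each comparison with head, and with totals without the most abundant unigene 7 of 11 did for head minus trunk. Relative to the median of all unigenes 0 changed sign under either, which a shift common to all unigenes nearly fixes in advance.

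**Figure D2:**
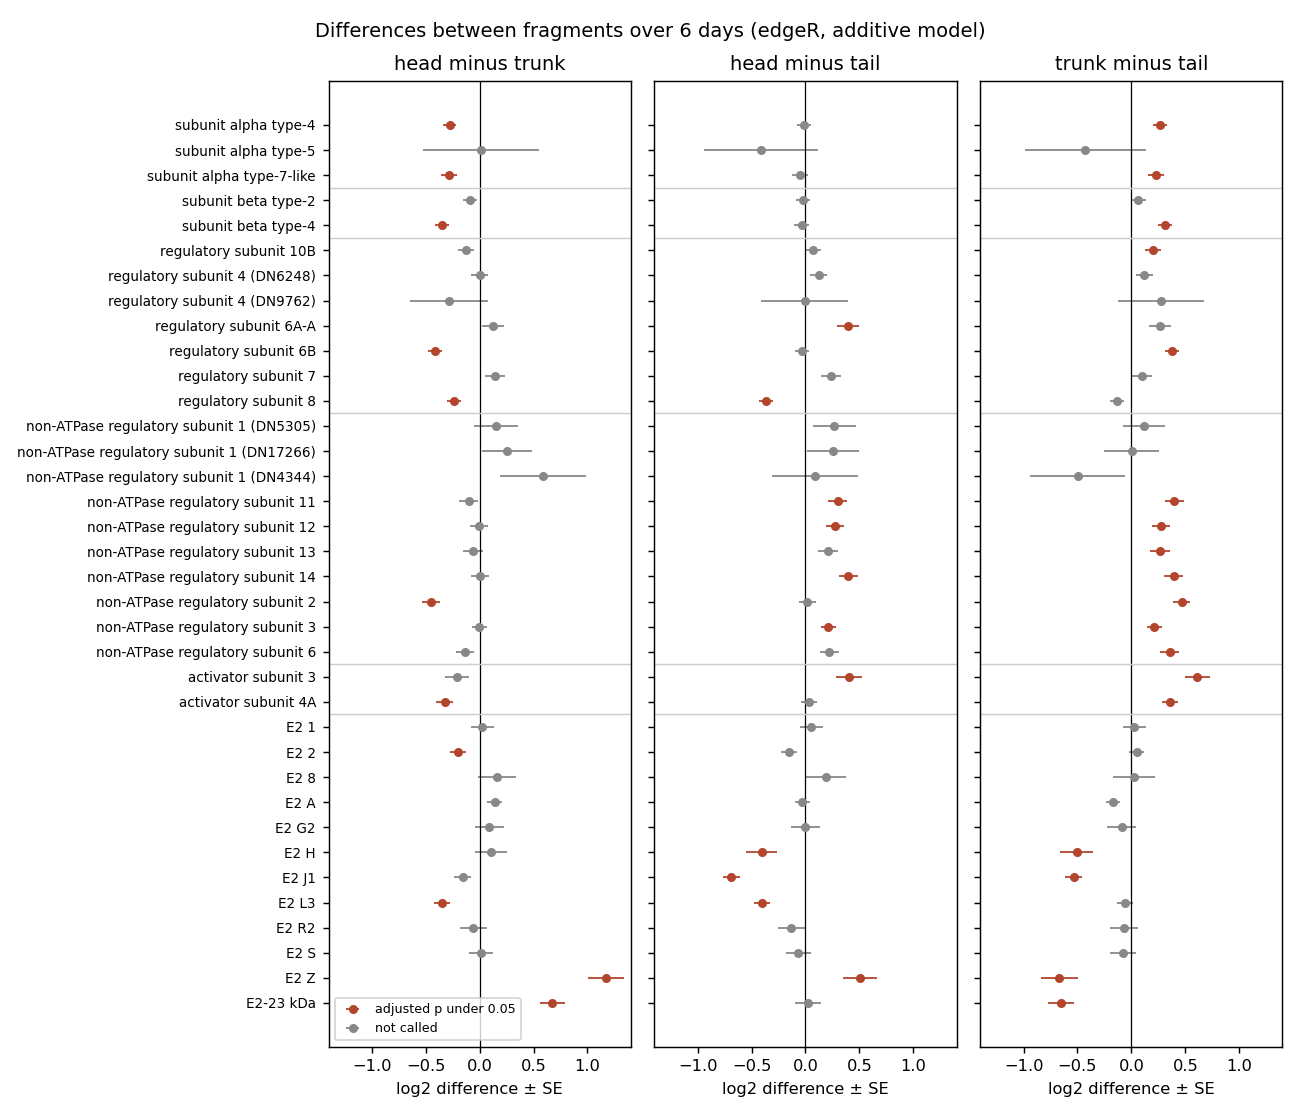
Log2 difference of each member between head and trunk, head and tail, and trunk and tail, with its SE, from the additive edgeR fit over 6 days; red points are called at an adjusted p under 0.05. In trunk minus tail 14 proteasome points lie to the right among the red ones and 4 E2 points to the left; with plain library totals the median of all unigenes in that panel moves right by 0.39.

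In the 20S core, 3 of 5 subunits were called between trunk and each of the other fragments, and 0 between head and tail. Over all roles, 6 members, all of the proteasome, were called higher in trunk than in head and in tail. These are 16.7% of members, against 10.8% of all tested unigenes. The opposite held for 2 members, E2 Z and E2-23 kDa, or 5.56%, against 6.64%. Called in at least 1 pair of fragments were 61.1% of members, against 63.1% of all tested unigenes. Proteasome subunit beta type-4 (TRINITY_DN3519_c0_g1), a non-catalytic subunit of the inner rings, had 57.8, 67.2, 60.8, 59.7, 58.4 and 62.3 CPM in head from day 0 to day 10. It had 82.3, 75.7, 78.7, 80.0, 76.0 and 73.5 CPM in trunk, and 63.1, 69.0, 65.5, 62.9, 60.8 and 54.8 CPM in tail. Every trunk library lay above every head and tail library, and head and tail overlapped. The log2 difference was -0.35 ± 0.07 (SE) for head minus trunk (adjusted p = 0.000384) and 0.31 ± 0.07 for trunk minus tail (adjusted p = 0.00144). The alpha subunits form the outer rings and the gate of the barrel, and 2 of 3 were called. Alpha type-4 (TRINITY_DN769_c0_g2) averaged 41.9 ± 2.72 CPM in head (SD, n = 6 days), 50.8 ± 2.75 in trunk and 42.2 ± 1.99 in tail, and its trunk range of 47.9 to 55.3 CPM lay above both other ranges. Alpha type-7-like (TRINITY_DN8955_c0_g1) ranged from 43.3 to 54.2 CPM in head and 56.5 to 63.5 in trunk, which did not overlap, and from 42.4 to 61.8 in tail, which overlapped both. Its tail libraries of days 1 and 5 lay within the trunk range. Both were lower in head than in trunk, by log2 -0.28 ± 0.06 (adjusted p = 0.00215) and -0.28 ± 0.07 (adjusted p = 0.00477). Alpha type-5 was called in no pair, with 0.967 ± 0.792 CPM in head, 0.893 ± 0.771 in trunk and 1.24 ± 0.857 in tail.

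Fragments whose libraries do not overlap were also counted. Head and trunk did not overlap in 7 of 36 members, or 19.4%, against 21.3% of all tested. The figures were 4 of 36, or 11.1%, against 14.2% for trunk and tail, and 2 of 36, or 5.56%, against 15.0% for head and tail.

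The ATPases, the ring that unfolds substrates and feeds them into the core, did not share a pattern over fragments. Regulatory subunit 6B (TRINITY_DN170045_c0_g1) had 82.9 to 91.6 CPM in head with a median of 87.2, 102 to 125 in trunk with a median of 117, and 79.8 to 98.2 in tail with a median of 89.5. Trunk lay above both others without overlap (log2 -0.41 ± 0.06 for head minus trunk, adjusted p = 5.73e-05, and 0.38 ± 0.06 for trunk minus tail, adjusted p = 0.00022). Regulatory subunit 8 (TRINITY_DN4506_c0_g1), the ATPase with the highest CPM, was lowest in head and highest in tail, with 118 to 142 CPM in head, 141 to 161 in trunk and 145 to 179 in tail. Its head libraries lay below all tail libraries, and the highest head library just overlapped trunk. The log2 difference was -0.37 ± 0.06 for head minus tail (adjusted p = 0.000233) and -0.24 ± 0.06 for head minus trunk (adjusted p = 0.00699). Trunk minus tail was -0.13 ± 0.06 and not called (adjusted p = 0.122). Regulatory subunit 6A-A (TRINITY_DN7733_c0_g1) was instead higher in head than in tail on 6 of 6 days, by 0.39 ± 0.10 (adjusted p = 0.0054), although its ranges of 26.9 to 47.6 and 18.1 to 34.2 CPM overlapped. Regulatory subunit 10B (TRINITY_DN6349_c0_g1) was higher in trunk than in tail by 0.20 ± 0.07 (adjusted p = 0.0476, on 5 of 6 days). Regulatory subunit 7 and both unigenes named regulatory subunit 4 were called in none of the 3 comparisons.

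Of the 10 non-ATPase subunits of the 19S particle, 7 were lower in tail than in trunk and 4 lower in tail than in head. Non-ATPase subunit 14 (TRINITY_DN6179_c0_g1), the metalloprotease that cuts ubiquitin chains off the substrate, ranged from 23.4 to 33.7 CPM in head with a median of 26.1, from 24.0 to 30.6 in trunk with a median of 25.9, and from 16.0 to 24.6 in tail with a median of 20.3. The tail range overlapped the others only through its day 1 library. It was higher than tail by 0.40 ± 0.09 in head (adjusted p = 0.00192) and by 0.39 ± 0.09 in trunk (adjusted p = 0.00263), on 6 of 6 days in both. Non-ATPase subunit 11 (TRINITY_DN6790_c0_g1), a scaffold of the lid that clamps the 19S particle to the core, was higher than tail by 0.30 ± 0.09 in head (adjusted p = 0.0121) and by 0.40 ± 0.09 in trunk (adjusted p = 0.00198). Non-ATPase subunits 12 and 3, also lid scaffolds, differed from tail in the same directions by 0.21 to 0.27. Subunits 13 and 6 were higher in trunk than in tail, by 0.27 and 0.36, and missed the threshold between head and tail with adjusted p of 0.0939 and 0.0539. Head minus trunk lay between -0.13 and 0.00 for these 6 subunits.

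Non-ATPase subunit 2 (TRINITY_DN30337_c0_g1), the base scaffold on which ubiquitin receptors dock, was instead higher in trunk than in both other fragments, like the called core subunits. It ranged from 61.8 to 92.7 CPM in head with a median of 68.8, from 87.6 to 107 in trunk with a median of 98.6, and from 60.6 to 87.3 in tail with a median of 71.4. Only the head library of day 1 reached the trunk range, and tail stayed below it. The log2 difference was -0.45 ± 0.08 for head minus trunk (adjusted p = 0.000246) and 0.47 ± 0.08 for trunk minus tail (adjusted p = 0.000288).

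Both activators, which cap the core without using ubiquitin or ATP, were higher in trunk than in tail. Proteasome activator complex subunit 3 (TRINITY_DN34606_c0_g1), a nuclear activator in mammals, had 7.74 to 11.3 CPM in head, 8.59 to 12.5 in trunk and 4.46 to 10.2 in tail. Its log2 difference of 0.61 ± 0.12 between trunk and tail was the largest of the proteasome members called (adjusted p = 0.000692), and it was also higher in head than in tail by 0.40 ± 0.12 (adjusted p = 0.0112). Its ranges overlapped in all 3 pairs. Subunit 4A (TRINITY_DN59_c0_g2), a large single-chain cap, averaged 44.4 ± 3.46 CPM in head, 55.6 ± 3.66 in trunk and 43.5 ± 5.72 in tail (SD, n = 6 days). Head and trunk did not overlap (log2 -0.32 ± 0.07, adjusted p = 0.00213), and trunk exceeded tail by 0.36 ± 0.08 (adjusted p = 0.00144).

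Markers of stem and cycling cells and of the intestine also differed between fragments. The summed level of 15 stem and cycling cell unigenes (Piwi-like proteins, MCM helicases and ribonucleotide reductase) was 664 to 1153 CPM in trunk, 468 to 869 in head and 505 to 778 in tail. Of them 7 were higher in trunk than in head and 5 higher in trunk than in tail, with 0 in the other direction and none at 0 in any library. Their sum was higher in head than in trunk on day 5 (869 and 808 CPM) and day 10 (673 and 664 CPM), and lower in head on the other 4 days. The summed level of 14 intestine unigenes was 2548 to 3791 CPM in trunk, 1411 to 2572 in head and 775 to 1387 in tail, with 12 of them higher and 1 lower in trunk than in tail, 4 higher and 7 lower in head than in trunk, and none at 0 in any library. Their part in the proteasome levels was not tested.

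The E2 enzymes, which carry activated ubiquitin and pair with an E3 ligase, did not share a direction between fragments. E2 Z (TRINITY_DN7517_c0_g1), an enzyme that in human is charged by the E1 enzyme UBA6, had the largest difference of all members called. It had 9.57, 6.42, 8.31, 6.05, 5.43 and 8.45 CPM in head from day 0 to day 10. In trunk it had 3.48, 3.21, 2.5, 3.88, 3.31 and 3.13 CPM, and in tail 7.14, 4.66, 3.33, 6.0, 5.24 and 4.86 CPM. Every head library lay above every trunk library, and tail lay between them and overlapped both. The log2 difference was 1.17 ± 0.16 for head minus trunk (adjusted p = 2.21e-05), 0.51 ± 0.16 for head minus tail (adjusted p = 0.0192) and -0.67 ± 0.17 for trunk minus tail (adjusted p = 0.00662). Of 2 unigenes named for UBA6, TRINITY_DN11861_c0_g1 had 32.5 ± 3.19 CPM in head, 30.4 ± 1.77 in trunk and 36.9 ± 4.80 in tail (SD, n = 6 days), and TRINITY_DN132043_c0_g1 had 1.24 ± 1.19, 0.515 ± 0.21 and 1.67 ± 1.36 CPM. Both were lower in trunk than in tail, with log2 -0.28 ± 0.08 (adjusted p = 0.0165) and -1.57 ± 0.49 (adjusted p = 0.0192), and neither was called between head and trunk or between head and tail.

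E2-23 kDa (TRINITY_DN10326_c0_g5), named after a wheat enzyme, was low in trunk too. It had 9.13 to 17.8 CPM in head with a median of 14.3, 7.69 to 10.0 in trunk with a median of 8.47, and 9.89 to 15.9 in tail with a median of 13.8. Trunk overlapped the lowest library of head and of tail, both of day 1. It was higher in head than in trunk by 0.68 ± 0.12 (adjusted p = 0.000232) and lower in trunk than in tail by 0.65 (log2 -0.65 ± 0.12, adjusted p = 0.000562), on 6 of 6 days in both.

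E2 J1 and E2 H were highest in tail. E2 J1 (TRINITY_DN12483_c1_g1), which sits in the membrane of the endoplasmic reticulum and serves the disposal of misfolded proteins there, had 25.6 to 32.9 CPM in head with a median of 29.2, 27.6 to 35.0 in trunk with a median of 33.7, and 34.2 to 52.5 in tail with a median of 50.3. Head and tail did not overlap, and the tail library of day 5 was the one within the trunk range. The log2 difference was -0.69 ± 0.08 for head minus tail (adjusted p = 3.19e-06) and -0.53 ± 0.08 for trunk minus tail (adjusted p = 7.06e-05). E2 H (TRINITY_DN5081_c0_g1) was less abundant, at 2.85 to 5.99 CPM in head, 3.56 to 6.23 in trunk and 3.71 to 9.90 in tail. Its ranges overlapped in all pairs, but tail was higher on 6 of 6 days than head (log2 -0.41 ± 0.15, adjusted p = 0.0364) and than trunk (-0.51 ± 0.15, adjusted p = 0.0141).

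E2 L3 (TRINITY_DN3220_c0_g1), which works with HECT and RBR ligases such as parkin, was the E2 enzyme with the highest CPM. It had 280 to 424 CPM in head with a median of 392, 432 to 505 in trunk with a median of 479, and 364 to 552 in tail with a median of 534. Head lay below trunk without overlap and overlapped tail through the tail library of day 5. The log2 difference was -0.35 ± 0.07 for head minus trunk (adjusted p = 0.00107) and -0.41 ± 0.07 for head minus tail (adjusted p = 0.000346). E2 2 (TRINITY_DN2426_c0_g2), named after a worm enzyme, was lower in head than in trunk by 0.20 (log2 -0.20 ± 0.07, adjusted p = 0.0332). The other 6 E2 enzymes, named E2 1, 8, A, G2, R2 and S, were called in no comparison between fragments, with log2 differences from -0.17 to 0.19. E2 A, a partner of the ligases that mark histones and replication clamps, was among the steadiest members, at 44.0 to 59.2 CPM over all libraries.

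Other marker lists also differed between fragments. The summed level of 19 neuron unigenes, none at 0 in any library, was 1225 to 1424 CPM in head, 458 to 622 in trunk and 600.4 to 1008 in tail, an order of medians that E2 Z and E2-23 kDa shared. Of them 9 were higher and 6 lower in head than in trunk, and 3 were higher and 5 lower in trunk than in tail. From day 0 to day 10 in tail, the neuron sum went from 600.4 to 1008 CPM. E2 Z went from 7.14 to 4.86 CPM there, and E2-23 kDa from 13.5 to 15.9 CPM. A list of 15 muscle unigenes, 1 of them at 0 in a library, held troponins, paramyosins and myosin heavy chains, some of these named non-muscle. Its summed level was 6230 to 10201 CPM in head, 11051 to 15855 in trunk and 12394 to 18667 in tail. Of the 15, 10 were lower and 0 higher in head than in trunk, and 4 were higher and 3 lower in trunk than in tail. The part of these lists in the E2 levels was not tested.

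**Figure D3:**
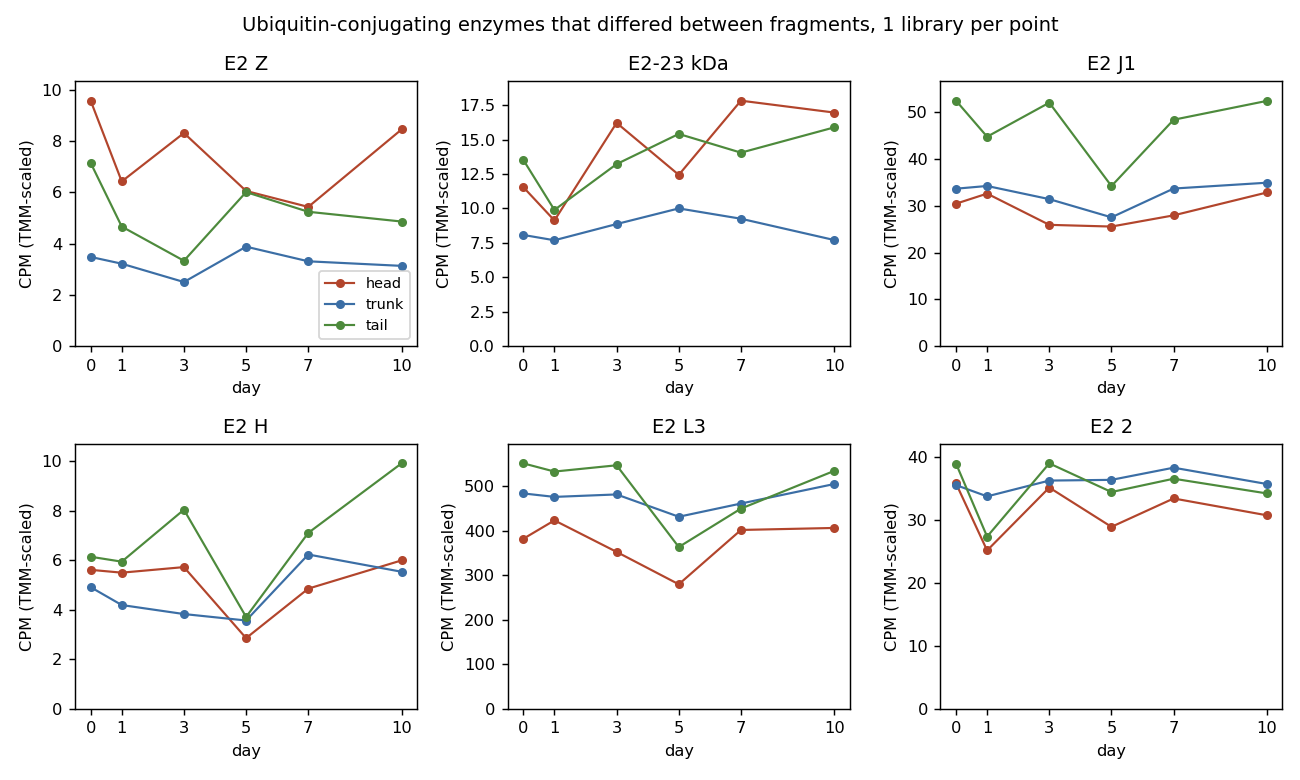
CPM after TMM scaling of 6 E2 enzymes by day, with 1 library per point and a line per fragment; each axis starts at 0. E2 Z was 5.43 to 9.57 CPM in head and 2.5 to 3.88 in trunk, and E2 J1 was 34.2 to 52.5 in tail and 25.6 to 32.9 in head; with plain library totals the tail levels of E2 J1 and E2 H would no longer exceed those of head.

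No member passed the edgeR test over all days. By edgeR 0 of 36 members passed it, against 5.83% of all tested unigenes, while 11 had an unadjusted p under 0.05 and the lowest adjusted p was 0.0659. DESeq2 called 4: regulatory subunit 6A-A, E2 H, E2 L3 and activator subunit 3. For a slope over log2(day + 1), edgeR called 0 members, against 3.99% of all, with 2 at an unadjusted p under 0.05, and DESeq2 called 1, alpha type-5. For slopes that differ between fragments both tools called 0, against 1.63% by edgeR, with 1 at an unadjusted p under 0.05. Shares of all unigenes for the DESeq2 calls and for the unadjusted p are not given here, so those counts have no background. The 2 members with the lowest p for a slope were alpha type-5, at 0.61 ± 0.21 (log2 CPM per unit of log2(day + 1), adjusted p = 0.126), and E2-23 kDa, at 0.12 ± 0.05 (adjusted p = 0.138), both with a positive slope in all 3 fragments.

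Many proteasome members had their highest library on day 1. This was the highest of the 6 libraries for 15 of 24 proteasome members in head, against 23.4% of all tested unigenes, for 11 in trunk, against 15.5%, and for 13 in tail, against 14.3%. Among the 12 E2 enzymes these numbers were 2, 2 and 0. For 6 proteasome members, regulatory subunits 4 (TRINITY_DN6248_c0_g1), 6A-A and 7, non-ATPase subunits 13 and 14 and activator subunit 3, day 1 was the highest in all 3 fragments, against 1.31% of all. With head left out, 7 members had their highest library on day 1 in trunk and in tail, against 3.18%, among them regulatory subunit 10B. The members of a library share its scaling factor, and libraries of the same day may share other features. Members are thus not independent here, and this count was chosen after values were seen.

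Regulatory subunit 6A-A was higher on day 1 than on day 0. It had 26.9 CPM in head at day 0 and 47.6 at day 1, 30.8 and 40.4 in trunk, and 18.1 and 34.2 in tail. On later days it had 32.4 to 38.5 CPM in head, 27.3 to 37.5 in trunk and 26.5 to 29.9 in tail, below the day 1 library in each fragment. The log2 difference of day 1 minus day 0 was 0.69 ± 0.14 (adjusted p = 0.0427), and it was the only member called on that day, against 0.407% of all tested (0.305% higher). Without the head library of day 1 the difference was 0.65 ± 0.16 and not called (adjusted p = 0.149), and over the alternatives run the adjusted p ranged from 0.0144 to 0.951. Over the proteasome members the median difference of day 1 minus day 0 was 0.26, over the E2 enzymes -0.05 and over all tested unigenes -0.004, and at an unadjusted p under 0.05 there were 12 of 24 proteasome members higher and 1 lower, against 4.9% and 5.47% of all tested unigenes. The lower one was a copy of non-ATPase subunit 1 (TRINITY_DN17266_c0_g1). E2 2, chosen after its values were seen, went from 35.8 to 25.2 CPM in head, 35.6 to 33.8 in trunk and 39.0 to 27.4 in tail (log2 -0.36 ± 0.10, adjusted p = 0.168).

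**Figure D4:**
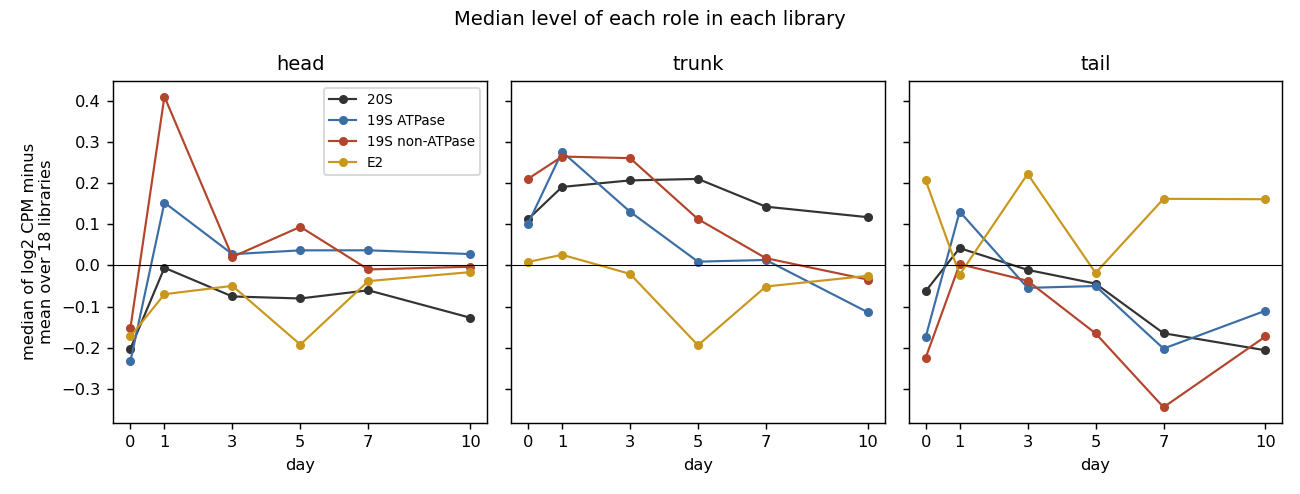
Median over members of log2 CPM minus the member's own mean, by day, for the 20S core (4 members), the 19S ATPases (6), the 19S non-ATPase subunits (8) and the E2 enzymes (8), for members with a mean of at least 10 CPM. The non-ATPase median was -0.15 at day 0 and 0.41 at day 1 in head, -0.22 and 0.003 in tail, and 0.21 and 0.27 in trunk; the E2 median of tail was 0.21 and -0.02.

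Other measures also differed on day 1. The head library of day 1 had the smallest share of the most abundant unigene of all libraries. The summed level of the stem and cycling cell markers, of which none was at 0 in any library, was 468 CPM at day 0 and 854 at day 1 in head, 505 and 778 in tail, and 1153 and 983 in trunk. On day 5 this sum was 869 CPM in head, 778 in tail and 808 in trunk. In head the median log2 CPM minus own mean of proteasome members averaging at least 10 CPM was 0.22 on day 1. On day 5 it was -0.03. In tail these values were 0.04 and -0.08, and in trunk 0.22 and 0.05. The part of these markers in the day 1 levels was not tested.

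After day 1, single days brought few calls. E2 L3 was lower at day 5 than at day 0 by 0.40 (log2 -0.40 ± 0.10, adjusted p = 0.0351), against 5.45% of all unigenes called on that day (4.18% lower). Its levels were 382 and 280 CPM in head, 484 and 432 in trunk, and 552 and 364 in tail. Without the tail libraries the difference was -0.24 ± 0.14 (adjusted p = 0.472), and with DESeq2 size factors it was -0.39 (adjusted p = 0.0553), and over the alternatives run the adjusted p ranged from 0.0258 to 0.723. Days 3, 7 and 10 had 0 members called by edgeR, against 1.32, 1.22 and 1.27% of all.

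Levels of proteasome members were compared with each other across libraries. Pearson's r of a member with the median of the other proteasome members had a median of 0.69 over the 19 proteasome members with a mean of at least 10 CPM, of -0.27 over 8 E2 enzymes and of -0.01 over all 8718 tested unigenes at that level. With fragment means removed these medians were 0.69, -0.14 and -0.02. Non-ATPase subunit 13 (TRINITY_DN28409_c0_g1) had the highest r, 0.90 over all libraries and 0.91 with fragment means removed. Non-ATPase subunit 1 had the lowest, -0.04 and -0.16. Regulatory subunit 8 had -0.02 over all libraries but 0.41 with fragment means removed. These are descriptions over 18 libraries, and all members of a library share its scaling factor and depth.

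Non-ATPase subunit 1 (TRINITY_DN5305_c0_g1), the other large scaffold of the base, did not follow its partners. It had 217, 126, 284, 232, 128 and 223 CPM in trunk from day 0 to day 10, and 213, 99.3, 250.1, 235, 119 and 207 CPM in tail. On days 1 and 7 it was thus at 0.531 times its mean of the other days in trunk and 0.482 times in tail. In head it had 270.1, 245, 192, 207, 192 and 163 CPM, with no such dips. Having days 1 and 7 below the other days in trunk and in tail held for 63 of 23616 unigenes, or 0.267%, and for 1 member, and this description was chosen after its values were seen. The 2 other unigenes of that name, at most 3.03 CPM, had ratios of 0.727 and 0.763 in head, 0.52 and 0.482 in trunk and 0.535 and 0.549 in tail. In head and in tail their libraries of days 1 and 7 overlapped those of the other days. The test over all days did not call it (adjusted p = 0.291). It did without the head libraries (adjusted p = 0.00234) and without the head library of day 1 (adjusted p = 0.0337), and over the settings run these were the only such calls of this unigene.

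**Figure D5:**
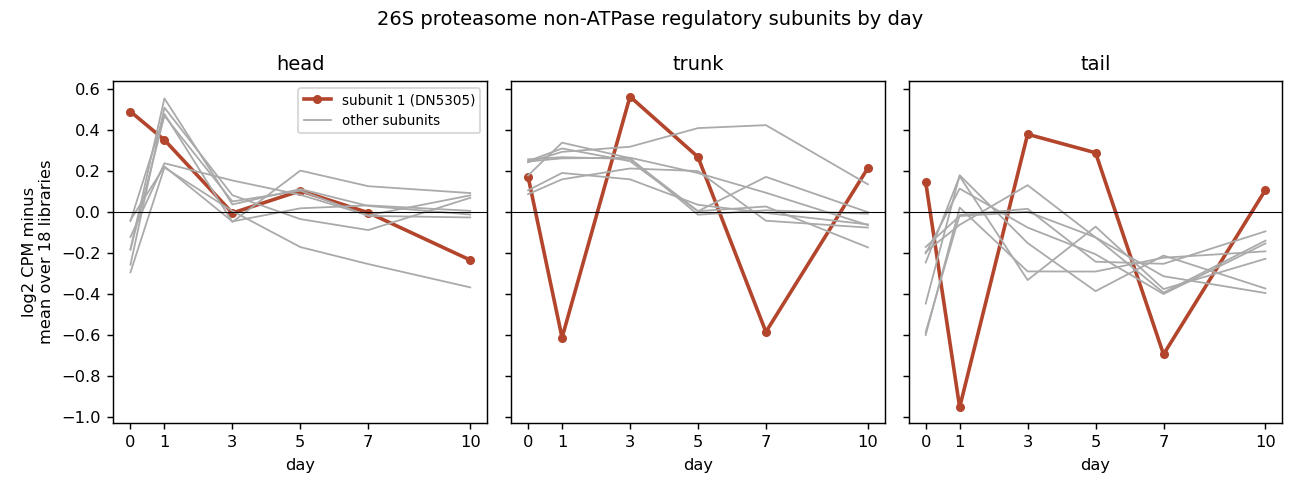
Log2 CPM minus the mean over 18 libraries, by day, for non-ATPase subunit 1 (red, 1 library per point) and the 7 other non-ATPase subunits with a mean of at least 10 CPM (grey). The red line drops on days 1 and 7 in trunk, to 126 and 128 CPM, and in tail, to 99.3 and 119 CPM, while on day 1 the median of all 8 was 0.27 in trunk and 0.003 in tail; in head it was 245 CPM on day 1 and 192 on day 7.

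Other genes of the ubiquitin pathway and of ubiquitin-like proteins, 184 unigenes found by name, were counted in the same fit. Of them 25 were higher in trunk than in tail and 43 lower (37.0% called, against 36.7% of all tested unigenes), 15 were higher in head than in tail and 37 lower (28.3%, against 39.2%), and 30 were higher in head than in trunk and 38 lower (37.0%, against 42.3%). For trunk minus tail the shares over all unigenes are 18.3% higher and 18.4% lower, and for head minus tail 19.5% and 19.6%, which are the background of the counts by list. E3 ligases, which choose the substrate, made up 106 of these, with 10 higher and 29 lower in trunk than in tail. Ubiquitin precursors, 17 unigenes, had 0 higher and 2 lower in trunk than in tail and 0 higher and 5 lower in head than in tail. The polyubiquitin TRINITY_DN9282_c0_g1 averaged 29.8 ± 5.97 CPM in head, 36.9 ± 4.71 in trunk and 59.0 ± 12.6 in tail (head minus tail -0.98 ± 0.10, adjusted p = 1.23e-06). Of 9 unigenes named as E1 enzymes of ubiquitin or ubiquitin-like proteins, 4 were higher in trunk than in tail and 2 lower. Among the 4 were ubiquitin-like modifier-activating enzymes ATG7 (TRINITY_DN15399_c0_g3, 1.07 ± 0.13) and 5 (TRINITY_DN2718_c0_g1, 0.37 ± 0.08). The 2 lower ones were the unigenes named for UBA6. This list also holds a NEDD8-activating subunit, which was not called between trunk and tail. Of 4 unigenes named ubiquitin-like modifier-activating enzyme 1, the main E1 enzyme for ubiquitin, 2 were higher in trunk than in tail. TRINITY_DN13749_c0_g1 had 65.6 ± 5.91 CPM in trunk, 47.2 ± 2.96 in head and 48.5 ± 7.07 in tail (trunk minus tail 0.44 ± 0.08, adjusted p = 0.000337), and TRINITY_DN6898_c0_g1 differed by 0.28 ± 0.09 (adjusted p = 0.0197). TRINITY_DN12902_c0_g2 differed by 0.07 ± 0.07 (adjusted p = 0.491). The scarce TRINITY_DN116336_c0_g2 was listed at 0.411 ± 0.37 CPM in trunk, 0.952 ± 0.857 in head and 1.19 ± 1.28 in tail, and was not called (adjusted p = 0.056).

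Deubiquitinases and the segregase p97, which pulls tagged proteins from membranes and complexes, gave both directions. Of 32 deubiquitinases 5 were higher and 7 lower in trunk than in tail, and 3 were higher and 9 lower in head than in tail. Ubiquitin carboxyl-terminal hydrolase 5 (TRINITY_DN6796_c0_g2), which recycles free chains, was higher in trunk, at 72.1 ± 4.21 CPM against 53.8 ± 6.68 in head and 54.9 ± 5.0 in tail. Among the lower ones was hydrolase 2 (TRINITY_DN2695_c0_g2), with trunk minus tail at -0.54 ± 0.10 (adjusted p = 0.000382). TRINITY_DN1223_c2_g1, of the same name, had -0.47 ± 0.08 (adjusted p = 0.000393). Of 12 unigenes of p97 and its cofactors 5 were higher in trunk than in tail and 2 lower. The scarce p97 unigenes TRINITY_DN10403_c0_g1 and TRINITY_DN85498_c0_g1, with fragment means of 0.184 to 1.23 CPM, went opposite ways. Trunk minus tail was 1.12 ± 0.35 (adjusted p = 0.0201) and -2.21 ± 0.64 (adjusted p = 0.0108). UBX domain-containing protein 1 (TRINITY_DN5789_c0_g1), a cofactor of p97, had 144 ± 5.71 CPM in trunk, 83.3 ± 11.4 in head and 104 ± 16.8 in tail. Of 5 unigenes of the COP9 signalosome, a relative of the proteasome lid, subunit 2 (TRINITY_DN14727_c0_g1) was higher in trunk than in tail by 0.70 ± 0.07 (adjusted p = 4.45e-06) and subunit 3 (TRINITY_DN4422_c0_g1) was lower, with -0.55 ± 0.12 (adjusted p = 0.00141). Over all days 4 of the 184 were called (2.17%, against 5.83% of all).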

How the data were processed

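The authors deposited raw counts per unigene for 18 libraries in a table of the whole series, per the file header, with protein descriptions. Per the submitters' processing notes, reads were handled with FastQC, fastp 0.20.0, Bowtie2 and RSEM; whole-number counts from RSEM may have been rounded. A further 18 columns of per-sample values were not used. No genome, annotation or sequences were used here.

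CPM and log2 values are this re-analysis's own, made from the authors' counts. Unigenes with CPM of at least 1 in at least 3 libraries (23616) were fitted together in edgeR 4.0.16 by its quasi-likelihood test, under R 4.3.3 with limma 3.58.1, using TMM scaling (factors 0.679 to 1.51), robust fitting and Benjamini-Hochberg adjustment over all of them at 0.05. Fragments and days came from fragment plus day (10 residual degrees of freedom), trends from slopes over log2(day + 1), in common (14) or per fragment (12). Libraries of a day were treated as a block because the labels give them the same day; the fit without it is in the closing section. DESeq2 1.42.0, other scalings, filters and subsets of libraries were alternatives; the older edgeR fit was chosen after seeing the data. Errors are SE for log2 values and SD over 6 days for CPM. Tests were tested on simulated data. Python 3.11.15, numpy 2.4.6, pandas 2.3.3, matplotlib 3.10.9 were used, with the R package data.table at version 1.17.8.

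Members and lists were chosen with earlier results of these data known. Named were, in each comparison, up to 3 called members per role with the largest difference and the same sign on at least 5 of 6 days, every activator and the member with the highest mean CPM per role; others named are for counts of 5 or fewer, lists or the ends of a range, or were chosen after their values were seen. Names come from the table, and paralogs may share reads.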

Additional observations from a re-analysis of the deposited data

Results flagged for a closer look

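In 5 of 108 sets of 6 libraries (36 members in 3 fragments) the highest or lowest library stood farther from the rest than Dixon's limit of 0.625 of the range allows; chance flags about 1 in 20 such sets. In head, 3 of these were the day 1 library at the top. Non-ATPase subunit 12 (TRINITY_DN5021_c1_g1) had 54.9 CPM there, against 33.0 to 40.4 in the other head libraries. Non-ATPase subunit 6 (TRINITY_DN8922_c0_g1) had 37.6 CPM, against 31.2 to 32.9, and activator subunit 3 (TRINITY_DN34606_c0_g1) had 11.3 CPM, against 7.74 to 8.53. Of the E2 enzymes, E2 G2 (TRINITY_DN5324_c1_g1) stood at 10.8 CPM in the tail library of day 5, against 6.0 to 7.28 in the others, and E2 H (TRINITY_DN5081_c0_g1) at 2.85 CPM in the head library of day 5, against 4.85 to 5.99.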

How the results depend on the processing

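Each fragment and day had 1 library, so no setting tests the spread between pools, and members near 1 CPM are limited by depth. The block by day stands in for a replicate block; without it, head against tail had 6 members called in place of 11, head against trunk 10 and trunk against tail 12 in place of 18. The same-day libraries share only a day in the labels.

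Counts of called members moved by over 1.5 times as follows. For head against tail, days 0 to 3 alone gave 6, plain library totals 31 (31 higher, 0 lower), totals without the most abundant unigene 20 (19 higher, 1 lower) and the 11 members with a flatworm match 4. For head against trunk, days 0 to 3 gave 5, totals without the most abundant unigene 22 (22 higher) and the flatworm matches 2, and plain totals gave 8, all higher in head. For trunk against tail days 0 to 3 gave 8, days 5 to 10 gave 10 and the flatworm matches 5; plain totals gave 22, all higher in trunk. The flatworm counts only take 11 of the 36 members in the same fit, so they do not measure an effect of processing. Leaving out 1 day or the head library of day 1 gave 8 to 13, 10 to 11 and 13 to 18. For any day, DESeq2 called 4 members, totals without the most abundant unigene 2, and the looser filter, the fit without head, that without trunk and that without the head library of day 1 called 1 each. For the trend, DESeq2 and the fit without day 0 called 1 each. Slopes that differ between fragments gave 0 in every setting run. Shares of all unigenes called under these settings are not given here, so these counts are not read as results about the members. The 2 other scalings by totals also shift the median of all unigenes, as given above.

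Of 544 values for 32 named differences under the alternatives, 463 kept direction and call, 69 lost the call and 12 changed sign against 0, all under 2 scalings that move all unigenes. With plain totals, head minus tail became 0.33 for regulatory subunit 8, 0.011 for E2 J1 and 0.28 for E2 H, and head minus trunk 0.0678 for regulatory subunit 8, 0.0123 for alpha type-7-like and 0.0246 for alpha type-4. With totals without the most abundant unigene, head minus trunk became 0.12, 0.0716 and 0.0807 for those 3, 0.009 for beta type-4, 0.01 for E2 L3 and 0.0313 for activator subunit 4A. Regulatory subunit 10B (trunk against tail) lost its call in 11 of 17 settings, E2 H (head against tail) in 9 and alpha type-7-like (trunk against tail) in 8; the cause was not tested.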
